A study of Mus musculus with 2 samples.

Results

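The splice junctions described here are those that 2 RNA samples of mouse gonadal fat carried in clearly different numbers. A splice junction is the point in a mature RNA where an intron has been cut out and the exons on its sides have been joined, and a sequencing read that crosses it shows that the join was made. The deposited junction table lists 515046 junctions and splits the reads of each into 2 counts, R1 and R2. A junction was taken when it carried both flags of the table (A and C, whose meaning the table does not state), at least 100 reads in all and a span of more than 100 bp and less than 100000 bp, and when (R2 + 1)/(R1 + 1) was at least 4-fold in either direction, which is a log2 ratio of 2 or more in size. This left 209 junctions of the 52953 that met every criterion but the ratio, or 0.395% of them. R2 was the higher count in 133 (0.251%) and R1 in 76 (0.144%), so 63.6% were R2-higher. R2 is the larger count over the whole table, and after both were scaled to equal totals 105 were R2-higher and 128 R1-higher, or 45.1% R2-higher. The ratio chose the junctions, so it is given here as a description, with no test.

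Both libraries came from the gonadal fat pad of C57BL/6J mice at 8 weeks of age, from littermates of both sexes pooled together. They form 1 group, replicates 1 and 2, with no treatment and no second condition, and they are labelled as separate biosamples of 1 donor entry, so the number of animals behind each is not known. The RNA was polyadenylated, depleted of ribosomal RNA and longer than 200 nt, and was read from both ends for 76 nt in strand-specific libraries with added spike-in RNA. The health state of the mice is given as unknown. The labels do not say which of R1 and R2 belongs to which replicate, so the junction counts and the gene tables of the replicates are set side by side. Where their directions are compared below, R1 is set beside replicate 1 and R2 beside replicate 2. In that order 95 of the 98 genes named below had the same sign in both, and 3 had the other sign.

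When an intron is removed, the cell uses a donor site at its 5′ end and an acceptor site at its 3′ end, and alternative splicing joins one such site to different partners. The number of reads over a junction therefore depends both on how much RNA of the gene is present and on how often that site pair is chosen. If the amount of RNA differs, all junctions of a gene shift together, whereas a different choice of sites shifts a junction against others that share its donor or acceptor.

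Genes were named by structure. A junction got a gene when its span, and at least 1 further flagged junction at the same offset, equalled introns of exactly 1 gene of the GENCODE M21 annotation on the same chromosome and strand. This named 201 of the 209, in 98 genes, of which 91 are protein-coding; 61 of the genes were R2-higher and 37 R1-higher, and none held both kinds. The median number of further matching junctions was 13, and 7 names rest on 1 alone. Coordinates below are those of the deposited table on build mm9, and every gene name rests on this match. Of the other 8, 4 fitted several genes and 4 fitted none. The latter lie at chr14:51875587-51875747, chr8:18975128-18978055, chr8:22950492-22953743 and chr8:22969461-22972273, with 4 and 238, 43 and 365, 97 and 408, and 44 and 254 reads in R1 and R2.

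The joins on which the results turn are shown as spliced RNA-sense sequence of GENCODE M21 transcripts, 15 bases to each side, with the exon before the intron in lower case and the exon after it in capitals. The first set holds the largest ratios in each direction and both acceptors of the last intron of Lep.
BC018473, chr11:116615804-116616606, plus strand: tcaacctcgaaaaagATGATGTTACTCCAA
Camk2b, chr11:5897952-5901340, minus strand: cctggtcttcgatctGGTCACTGGTGGGGA
Slc7a15, chr12:8542313-8542486, minus strand: agctgtgatctggggGGACCGAGTTCTGGG
Lep, chr6:29019096-29020822, plus strand: gacatttcacacacgCAGTCGGTATCCGCC
Lep, second acceptor, chr6:29019096-29020825, plus strand: gacatttcacacacgTCGGTATCCGCCAAG

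The second set shows joins that share sequence with another join. The 2 serpin joins come from different genes and read the same over all 30 bases. The pairs of Ywhaz and of Mgst1 share their capitals, that is their acceptor, and the pair of Vldlr shares its lower-case part, that is its donor.
Serpina3e-ps, chr12:105427922-105428559, minus strand: ctgagagtctctcagGTGGTCCACAAGGCT
Serpina3g, chr12:105478608-105479245, plus strand: ctgagagtctctcagGTGGTCCACAAGGCT
Ywhaz, chr15:36720744-36723233, minus strand: ccactccggacacagAATATCCAGTTATGG
Ywhaz, longer intron, chr15:36720744-36723899, minus strand: tcctgcagccagaagAATATCCAGTTATGG
Vldlr, chr19:27320172-27321082, plus strand: gacgagagtgtcaaaGTACTTCAACTCCTG
Vldlr, longer intron, chr19:27320172-27321499, plus strand: gacgagagtgtcaaaGGATCAATGTGACCA
Mgst1, chr6:138102125-138104652, plus strand: aagctgtccttgaagAGCCCACCTGAATGA
Mgst1, longer intron, chr6:138099384-138104652, plus strand: ggaacgcgtgcgcagAGCCCACCTGAATGA

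R1 summed to 15038888 reads and R2 to 17146776 reads over the 52953 junctions, and their median log2 ratio was 0.17. The middle 90% of ratios lay between -0.76 and 1.03. Scaling to equal totals kept 181 of the 209 in the set and lost 28, and the majority direction turned with it, as given above. The 209 carried between 100 and 23493 reads with a median of 196, and 50.7% had fewer than 200 reads, against 40% of the 52953. The exact 95% intervals given below cover counting error only, since reads of amplified libraries are not independent molecules. The table's irreproducible discovery rate, a value near 0 for a feature that ranks alike in both replicates, was 0 in 192 of the 209 and at most 0.013, and it was 0 in 95.8% of the 52953. A low rate thus stood beside ratios of any size in this table.

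**Figure D1:**
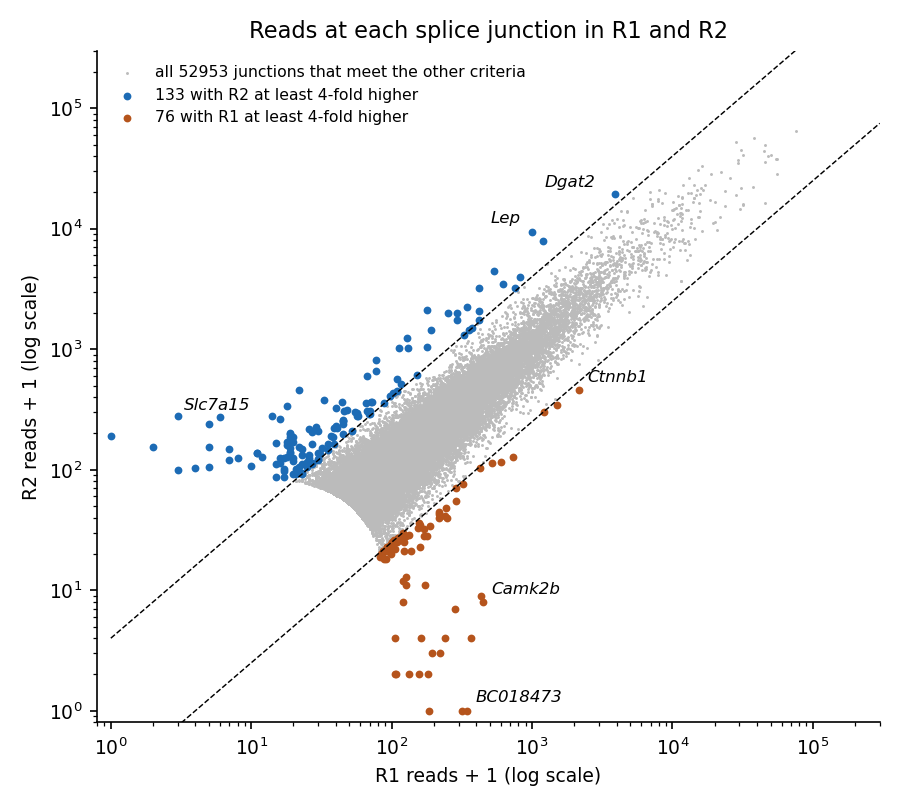
Reads of each junction in R1 (x axis) and R2 (y axis), plus 1 and on log scales. Grey points are all 52953 junctions that met the other criteria, blue points the 133 with R2 higher and orange points the 76 with R1 higher, and dashed lines mark 4-fold. Lep and Dgat2 lie at the high end, and BC018473 lies on the lower edge with no R2 reads.

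Hormones and secreted signals of fat cells were among the R2-higher junctions. Both introns of Lep, which encodes the satiety hormone leptin, were chosen. The first (chr6:29010249-29018920) had 531 reads in R1 and 4454 in R2, and the second 1005 and 9459, which gave log2 ratios of 3.07 and 3.23. That second intron also ended at an acceptor 3 bases further on, which leaves out CAG, the codon for a glutamine whose loss defines a known short form of leptin. This join lacked flag A and had 234 and 2156 reads. The first acceptor took 80.4% of the donor's reads in R1 and 81.2% in R2, so the amounts differed about alike for both forms. In the gene tables Lep stood at 92.1 TPM (a level scaled by transcript length and library size) in replicate 1 and 575 TPM in replicate 2.

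Angptl8, a secreted inhibitor of lipoprotein lipase activity in fed animals, had all 3 introns among the members, with 14, 19 and 29 reads in R1 against 110, 169 and 209 in R2. Sfrp5, a secreted Wnt antagonist made by fat cells, had 39 and 325 reads in its first intron and 21 and 462 in its second. Each junction of both genes was R2-higher, at log2 ratios from 2.81 to 4.40. Rbp4, the carrier of retinol in blood, had 1 of its 5 junctions of 100 reads or more among the members, with 370 and 1508 reads, and its other 4 were at log2 ratios from 0.96 to 1.42. Ptx3, a secreted pattern recognition protein of inflammation, had 7 and 124 reads, and the chemokine gene Ccl8 had 26 and 112.

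Of the 17 adipocyte markers only Lep and Dgat2 hosted a member. The log2 ratios of the others between the replicates ran from -0.55 for Cfd to 1.55 for Thrsp. Cidec and Adipoq were at 1.29 and 1.07, and the ones nearest to level were Plin1, Pnpla2 and Acly at 0.13, 0.10 and 0.08. Dgat2, the acyltransferase of the last step of triglyceride synthesis, held the junction with the most reads of all 209 (chr7:106307548-106313144, intron 4 of 7), with 3929 in R1 and 19564 in R2 and a log2 ratio of 2.32. Its other 6 introns were between 1.53 and 1.80, so the whole gene was R2-higher and intron 4 alone passed the limit. Plin2, a coat protein of lipid droplets, had 326 and 1311 reads in one intron and 108 and 450 in another, at log2 ratios of 2.00 and 2.05. Its other 5 junctions lay between 1.51 and 1.99. Gys2, a glycogen synthase best known from liver, had 4 member junctions with 15 to 25 reads in R1 and 114 to 153 in R2. The branching enzyme gene Gbe1 had 34 and 164 reads in a single member, beside a median log2 ratio of 0.77 in its other junctions.

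Mest, an imprinted gene whose RNA in fat tracks the expansion of the tissue, held 11 members along almost its whole length (chr6:30688336-30697051). They had 66 to 415 reads in R1 and 596 to 3216 in R2. The log2 ratios were close together, from 2.53 to 3.41, and no junction of 100 reads or more of the gene fell outside the set. Cbs, the enzyme that joins homocysteine and serine, held 8 members between log2 ratios of 2.04 and 2.89, and its other 9 junctions of that depth were at 1.29 to 1.90. Near its 3′ end Cbs had reads that kept a short exon and reads that skipped it. The joins into and out of that exon had 18 and 140 and 24 and 104 reads, the skip had 108 and 569, and all 3 were members. At the shared donor the skip took 85.7% in R1 (78.4% to 91.3%) and 80% in R2 (76.9% to 82.9%), and at the shared acceptor the exon's join took 18.2% and 15.5%, so the sites leaned opposite ways.

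Amino acid transporters and secreted defence proteins added further R2-higher genes. Slc7a15, of the family that carries amino acids across membranes, had 4 members with 0, 2, 6 and 13 reads in R1 against 189, 276, 119 and 279 in R2. Against a floor of 3 reads, the junction with none in R1 was at least 63.0-fold higher in R2. Ltf, which encodes the iron-binding protein lactoferrin, had 12 members with 19 to 87 reads in R1 and 111 to 365 in R2, and its log2 ratios ran from 2.02 to 2.92. Ighm, the constant part of the IgM heavy chain, had 3 junctions of 100 reads or more, and all were members. They had 818 and 3939, 1197 and 7933, and 618 and 3502 reads. Of the 5 B and plasma cell genes checked, Ighm was the single one at least 2-fold apart between the replicates, at 237.6 and 902.8 TPM. Without Ighm the list's 4 genes together had 67.2 TPM and 64.5 TPM in the same order. In bulk RNA, fewer cells of a type and less RNA per cell cannot be told apart.

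Digestive proteases and muscle genes were also R2-higher. Cela1, an elastase, had 6 members with 19 to 69 reads in R1 and 163 to 375 in R2. The chymotrypsinogen gene Ctrb1 had 2, with 14 and 165 and 22 and 131 reads. Tnni2, the inhibitory troponin of fast muscle, had 11 and 127 reads, and Ckm, the muscle creatine kinase, had 34 and 144. Of the 6 skeletal muscle markers 5 were at least 2-fold higher in replicate 2 and none in replicate 1. Over all genes these shares were 4.19% and 2.15%. Ckm, one of the 5, hosts a member and so was chosen by the ratio rule. Myh1, Mylpf, Tnnt3 and Myh4 had low expected counts of 24.2, 13, 6 and 5 in replicate 1. Acta1 was at a log2 ratio of 0.60 and held most of the list's summed level of 90 and 127.5 TPM. The myosin gene Myh1 had 0.11 TPM in replicate 1 and 1.63 TPM in replicate 2, and Myh4 had 0.020 and 0.21. What part adjoining muscle had in these junctions was not tested.

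The R1-higher junctions were led by a kinase gene and a non-coding RNA. Camk2b, the beta subunit of the calcium and calmodulin dependent kinase II of nerve and muscle, held 13 members (chr11:5871830-5901340), more than any other gene. They had 107 to 444 reads in R1 and 1 to 8 in R2. At chr11:5897952-5901340, with 369 and 3 reads, R2 held 0.81% of the reads (exact 95% interval 0.17% to 2.34%). BC018473, annotated as antisense RNA, had 184, 316 and 343 reads in R1 and 0 in R2 at 3 members, and 104 and 1 at the fourth. With a floor of 3 reads, those 3 junctions were at least 61.3, 105.3 and 114.3-fold higher in R1. The gene stood at 154.9 TPM in replicate 1 and 0.090 TPM in replicate 2, and Camk2b at 56.2 and 0.90 TPM.

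Most other genes with R1-higher junctions held only 1 or 2 of them. Ctnnb1, which encodes beta-catenin of cell adhesion and Wnt signalling, had its first 2 introns among the members, with 729 and 127 reads and 2165 and 459. Its other 12 introns were also R1-higher but by less, at log2 ratios from -1.63 to -0.27. Col1a1, the main chain of type I collagen, had 1 of 50 junctions in the set, with 1210 and 298 reads, and the other 49 were at -1.87 to -0.50. Lrp1, a large endocytic receptor, had 3 of 74, with 287 and 54, 178 and 27, and 169 and 31 reads. Its other 71 ran from -1.97 to 0.27, so not all were R1-higher. The coatomer gene Copa had 2 of 31, with 122 and 20 and 600 and 116 reads, and its other 29 ran from -1.98 to 0.22. Fkbp5, a co-chaperone of steroid receptors, had only its long first intron in the set (chr17:28577999-28622896), with 514 and 112 reads, beside a median of -0.56 in its other 9 junctions. Cyp2e1, a cytochrome P450, had 1 of 8, with 1494 and 341 reads.

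**Figure D2:**
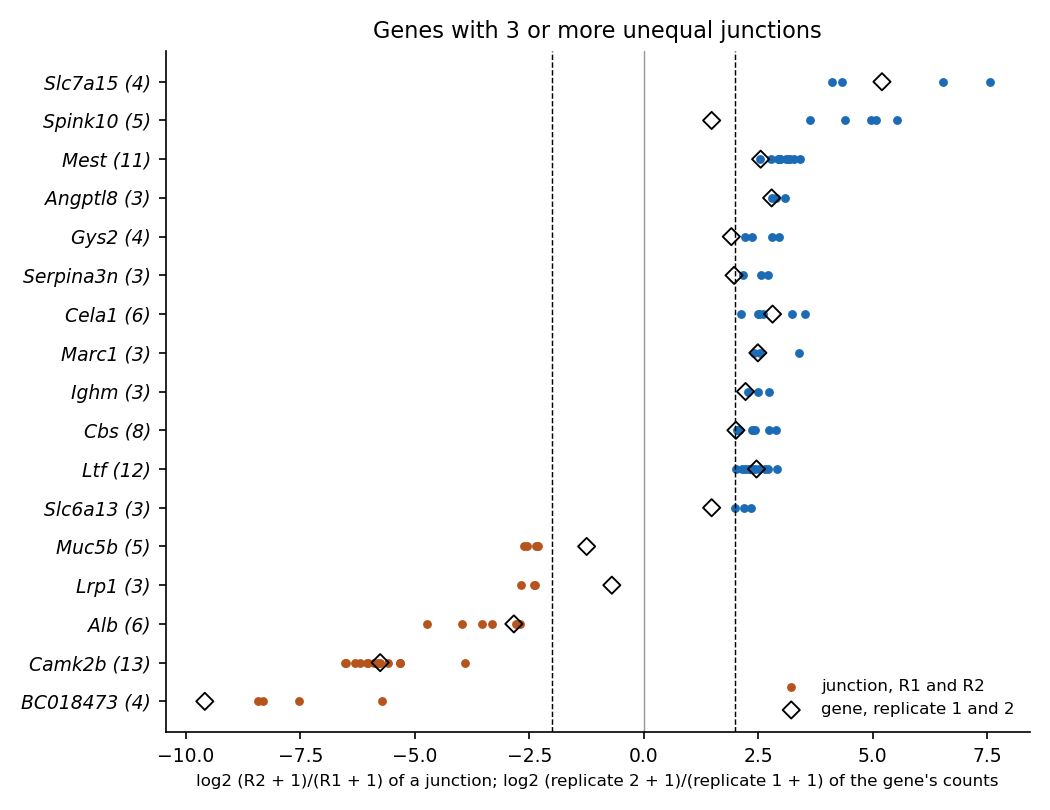
Log2 ratio of each member junction (dots; orange R1-higher, blue R2-higher) for the 17 genes with 3 or more members, whose number stands in brackets, and the log2 ratio of the gene's expected counts in replicate 2 over replicate 1 (open diamonds). Dashed lines mark 4-fold. Camk2b and BC018473 lie farthest to the left and Slc7a15 farthest to the right, and the diamonds of Lrp1, Muc5b, Spink10, Slc6a13, Gys2 and Serpina3n lie between the dashed lines.

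Members were next set beside the other junctions of their gene, which can be members too. Of the 152 members whose gene had at least 3 other junctions of 100 reads or more, 127 lay in a gene whose other junctions had a median at least 2-fold apart in the same direction. In genes such as Mest, Cela1, BC018473 and Slc7a15, where every junction of that depth was a member, the rule fixed this outcome. With members left out of the others, a comparison added after the data were seen, 100 members had at least 3 other junctions, and 73 of them lay in such a gene. By gene, 42 of the 98 were of this kind, 19 were shifted by less, 2 had a median of the opposite sign and 35 had too few junctions. Among all 5360 genes with enough junctions, 2.8% had a median junction at least 2-fold apart, 2.07% R2-higher and 0.728% R1-higher. Of the members, 49 matched ones had too few other junctions for this, and 8 had no single gene. Another 23 members lay in genes shifted by less, and 2 in genes whose other junctions had a median of the opposite sign. These were R3hdm2, with 109 and 24 reads beside a median of 0.06, and the uridylyltransferase gene Tut4, with 120 and 29 beside a median of 0.57. The R3hdm2 median lies below the 0.17 of the 52953 junctions, so that gene did not lean to R2. Since members and other junctions come from the same reads, this counts how far a gene shifts as a whole and is no independent evidence. Placed within 10 kb of each other, the 209 formed 113 local groups, of which 36 had 2 or more and together held 132 members. No group mixed directions.

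The gene tables, made from the same libraries on another build, were read for the same genes. Taking genes whose expected count averaged at least 20, 45 of the 59 genes with R2-higher members were at least 2-fold higher in replicate 2, and their median log2 ratio was 1.51. Over all 16920 genes of that depth 4.19% were so, and the median was 0.16. Of the 37 genes of R1-higher members, 22 were at least 2-fold higher in replicate 1, with a median of -1.10, against 2.15% of all genes, and in either direction 6.34% of all genes passed. The members were chosen on these libraries, so no more is read from these counts. The genes were of moderate level, with a median of 20.7 TPM in replicate 1 and 25.4 TPM in replicate 2.

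In a few genes the ratio or the number of reads changed sharply along the transcript. These genes, named after their values were seen, are shown intron by intron. Alb, the serum albumin gene, had 27 to 171 reads in R1 and 0 to 22 in R2 over its first 12 introns. Its last 2 introns had 405 and 231 and 169 and 199 reads. The excess of R1 was thus smaller in intron 13, at a log2 ratio of -0.81, and absent in intron 14, at 0.23. Camk2b had few reads in its first 3 introns, with 40 and 2, 3 and 0, and 5 and 1, and then 369 and 3 in the fourth. The mucin gene Muc5b had all 5 members between introns 19 and 26 of 48, while introns 32 to 48 all lay at log2 ratios between -1.16 and -0.34, with 967 and 575 reads in intron 48.

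Spink10, a serine protease inhibitor gene of the Kazal type, had 10 and 136, 4 and 154, and 4 and 104 reads in introns 3 to 5. Its introns 6, 7 and 8 had 333 and 827, 448 and 1080, and 207 and 498, at log2 ratios of 1.26 to 1.31. The upstream introns were thus far more unequal than the downstream ones. Serpina3n, an acute-phase protease inhibitor gene, was R2-higher over introns 1 to 3, with 292 and 1733, 115 and 517, and 342 and 2241 reads, and nearly equal in intron 4, with 450 and 478. Atp1a4, a sodium pump subunit known from sperm, had its largest ratios and most reads at its end. Its last intron had 17 and 169 reads and the one before 10 and 86, while the others had at most 31 reads in either count. Clstn3, a calsyntenin gene, had 22 and 147 reads in its last intron and at most 3 in any other listed intron of that transcript. Those other introns had too few reads for their ratios to be compared.

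**Figure D3:**
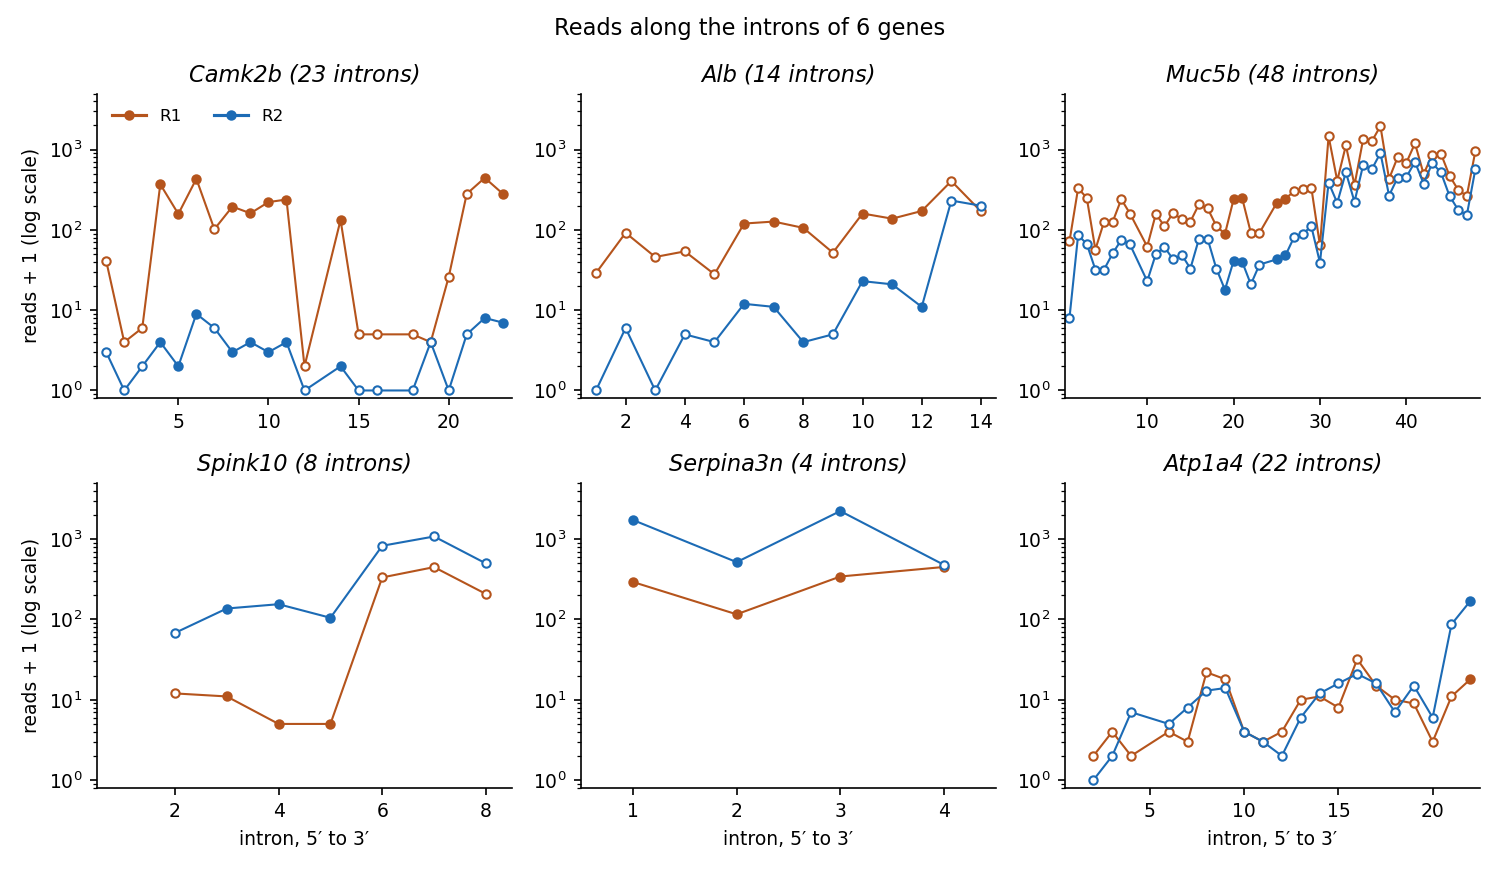
Reads plus 1 on a log scale along the introns of 6 genes, numbered from the 5′ end in the annotated transcript with the most listed introns, for R1 (orange) and R2 (blue). Filled points are members and open points are other listed junctions, and introns not listed are left out. In Alb the counts draw closer at intron 13 and meet at intron 14, in Serpina3n they meet at intron 4, and in Atp1a4 they part at the last 2.

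The share of a splice site's reads was compared where a member had a listed partner. At least 1 other listed junction used the donor or acceptor of 109 members (52.2%, against 56.9% of the 52953). A partner with 20 reads or more was found for 38 (18.2%, against 9.9%), and of these partners 30 were at least 2-fold unequal in the same direction, 0 in the other direction and 8 by less. Partners could themselves be members, as in Cbs, and the rule then kept them from counting as differing by less. A partner with the member's own counts, as in the Cyp4a12 copies, could only go the same way. The same-way share over the 52953 was not counted. The share of the site's reads that the member took could be measured in both R1 and R2, from at least 20 reads each, for 78 members. It differed by a median of 1.7 percentage points and by less than 5 points in 58. In 53 of the 78 the member took 90% or more of the site in both counts, which leaves its share little room to move. Among the other 25 the median difference was 5.7 points, and 11 differed by less than 5. These 25 include joins of the Cyp4a12 copies, whose reads may be listed more than once. A difference of 20 points or more was found in 8, in 3 when only junctions with both flags entered the site, and in 5 when only junctions of 20 reads or more did.

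The largest difference was at an acceptor of Ywhaz, which encodes a 14-3-3 adaptor protein. The member had 126 reads in R1 and 12 in R2, and the join from the longer intron had 13 and 9. The member thus took 88.7% of the acceptor's reads in R1 (exact 95% interval 82.3% to 93.4%) and 44.4% in R2 (25.5% to 64.7%), and the intervals did not overlap. The R2 share rests on 27 reads. Other junctions of Ywhaz downstream of this exon had at most 11 reads in either count, beside expected counts of 12274 and 7398 for the gene. Few of the gene's reads were thus listed there, for a reason not tested, and the share is uncertain. In the transcript tables the forms with the member intron held 98.6% of the gene's TPM in replicate 1 and 98.2% in replicate 2, so no such difference appeared there.

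At Vldlr, a receptor for triglyceride-rich lipoproteins, the member led into an exon of 84 bases that the longer join skipped, and alternative splicing of an exon for sugar side chains is known in this gene. Inclusion had 20 reads in R1 and 95 in R2, and the skip had 31 and 60. The join out of the exon, which shares its acceptor with the skip, had 28 and 78 reads. Its log2 ratio was 1.45 beside 2.19 for the member, so the joins of the exon were not unequal by a like amount. The share at that acceptor was not computed. Inclusion took 39.2% of the donor's reads in R1 (25.8% to 53.9%) and 61.3% in R2 (53.1% to 69.0%), and the intervals overlapped. The form with the exon held 16.3% of the gene's TPM in replicate 1 and 22.7% in replicate 2. Introns 1 to 9 of Vldlr were between log2 ratios of -0.48 and 1.35 and introns 10 to 18 between 0.68 and 2.19, so the member also lay in the more R2-higher end of the gene.

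At Mgst1, a membrane-bound glutathione transferase, the join from the longer intron had 4320 and 5000 reads and the member had 25 and 217. The member used a minor exon before the shared acceptor, and its share went from 0.6% (0.4% to 0.8%) in R1 to 4.1% (3.6% to 4.7%) in R2. The intron upstream of that minor exon had 5 and 49 reads, a log2 ratio of 3.06 beside 3.07 for the member. Both joins of the minor exon were thus unequal by a like amount. The main join at the acceptor was at 0.21 and the first 2 introns at 1.04 and 0.95. The transcript with the minor exon held 10.5% of the gene's TPM in replicate 1 and 18.5% in replicate 2.

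For Cela1 the member at chr15:100505905-100511573 had 44 and 254 reads and took 45.8% of its acceptor in R1 (35.6% to 56.3%) and 75.6% in R2 (70.6% to 80.1%), beside a join without flag A that had 31 and 53 reads. In Serpina3n the first intron took 62.5% (58.0% to 66.9%) and 88.2% (86.7% to 89.6%) of its acceptor, beside a join without flag A that had 167 and 209 reads. Neither pair of intervals overlapped. With only flagged junctions counted, both differences were 0.0, since the partner then drops out. Samm50, of the mitochondrial outer membrane, went from 93.8% to 68.0% at its first acceptor, Nav2, a neuron navigator gene, from 100% to 75% at a donor, Spink10 from 23.8% to 51.6% and the antisense RNA Ctcflos from 58.1% to 78.4%. Each of the latter 4 rested on fewer than 40 reads in one of the counts.

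**Figure D4:**
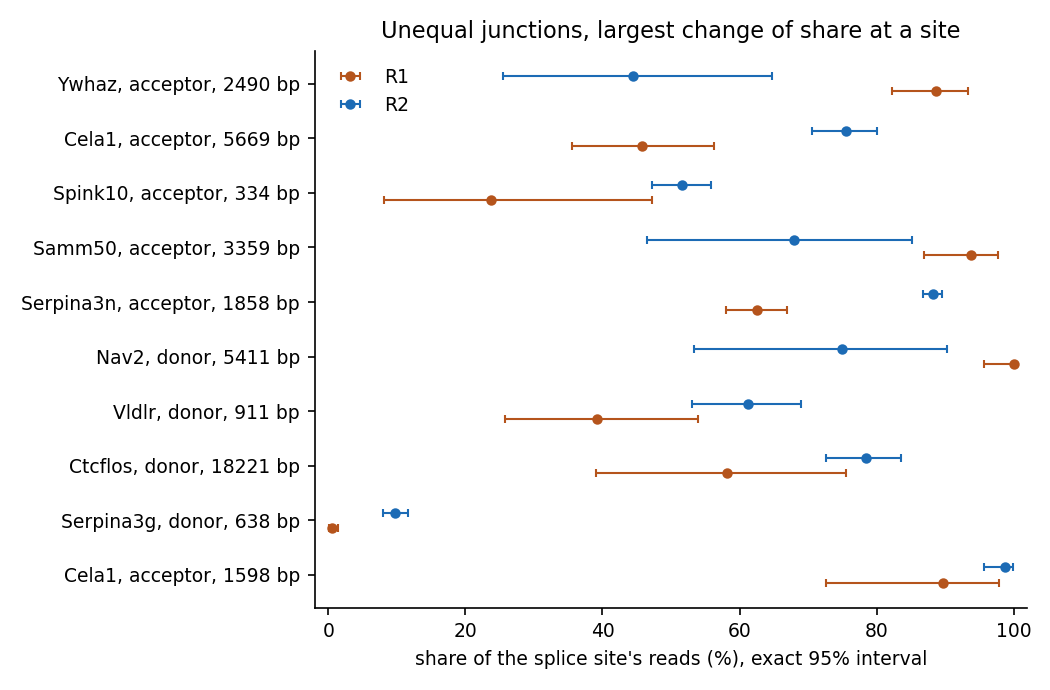
Share of the reads of a splice site taken by the member in R1 (orange) and R2 (blue), in percent with exact 95% intervals, for the 10 members with the largest difference; the label gives the gene, the site and the span of the member. Ywhaz goes from 88.7% to 44.4%, and the intervals of Vldlr, Ctcflos and the second Cela1 junction overlap.

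Some single members, chosen after their values were seen, stood apart from the rest of their gene. Hadhb, a subunit of the trifunctional protein of fatty acid oxidation, had 18 and 150 reads in its first intron, while the others with 100 reads or more had 64 and 65, 53 and 76, and 123 and 168. Its listed introns from 9 to 14 had at most 5 reads in either count, beside expected counts of 3722 and 6446 for the gene. Why so few reads were listed there was not tested, so the Hadhb values are uncertain. Klhdc4 had 14 and 86 in intron 7 of 11 and 20 and 65 in intron 6, while introns 8 to 11 were at log2 ratios of 0.15 to 0.22 and intron 4 was R1-higher, with 131 and 72. Ftl1, the ferritin light chain, had 177 and 2105 reads at its last intron (chr7:52713654-52713904), 41 and 138 at the one before and 279 and 331 at its first, and its levels were 2255 and 2457 TPM. Ferritin light chain has processed pseudogenes, and reads can be placed on copies, so this value is uncertain.

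The same holds for other families with near-identical copies. For the P450 genes Cyp4a12a and Cyp4a12b, a member at chr4:115084477-115085861 had 29 and 122 reads, and a junction without flag A that ends at the same site had 29 and 122 too. The Cyp4a12b member at chr4:115107862-115110661 had 16 and 124, as had its partner without flag A. Equal counts at different junctions show that the same reads may have been listed more than once. In Serpina1b, an alpha-1 antitrypsin gene, the member had 17 and 340 reads and a partner without flag A had 0 and 917. The Serpina3e-ps join had 1 and 152 reads and the identical Serpina3g join 3 and 103, while Serpina3e-ps was listed with 0.030 TPM in replicate 1 and 0.30 in replicate 2, and Serpina3g with 1.97 and 2.48. The junction shared by the Ugt1a genes (chr1:90111751-90112369, 54 and 300 reads) and that of Tuba1a and its neighbour (chr15:98782123-98783881, 756 and 3247) could not be given to 1 gene.

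R1-higher and R2-higher members differed in where they lay. Along the annotated transcript from 5′ to 3′, 50.0% of the 76 R1-higher members lay in the first 40% of the introns and 25% in the last 40%. For the 125 matched R2-higher members these shares were 31.2% and 48.0%, and for all 51715 matched junctions 37.4% and 43.2%. Last introns made up 22.4% of the R2-higher and 2.6% of the R1-higher members, against 10.4% of matched junctions. First introns did not part the members in this way. They made up 15.2% of the R2-higher and 15.8% of the R1-higher members, against 9.7% of matched junctions. The R1-higher members came from transcripts with a median of 20 introns, the R2-higher ones from transcripts with 8, and all matched junctions from transcripts with 14. Members of 1 gene share its RNA, so these shares describe 98 genes and not 201 separate cases.

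The whole table had a slope in the same direction. In 1553 genes with at least 10 matched junctions, junctions in the first 10% of the transcript deviated from the gene's median log2 ratio by a median of -0.14, and those in the last 10% by 0.05. The 25th to 75th percentiles ran from -0.44 to 0.09 and from -0.16 to 0.32. The slope is small beside the limit of 2, and its part in the choice of members was not tested.

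**Figure D5:**
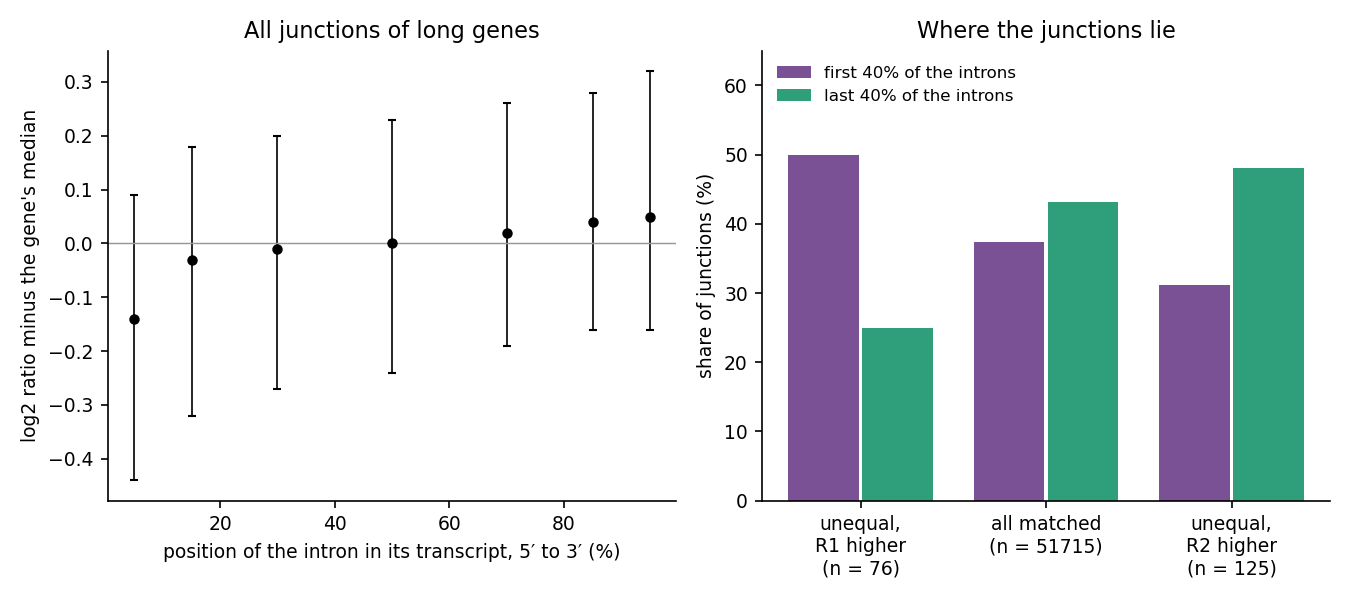
Left, the log2 ratio of a junction minus the median of its gene by position in the transcript, for genes with at least 10 matched junctions (points are medians, bars the 25th to 75th percentiles). Right, the share of R1-higher members, all matched junctions and R2-higher members in the first and the last 40% of the introns. Medians run from -0.14 to 0.05, and R1-higher members have 50.0% in the first 40%.

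The introns themselves were not unusual in length, with a median span of 1041 bp against 1139 bp over the 52953. On average less of the span was covered by the deposited contigs, which are stretches of continuous read coverage, with a median of 55.1% against 84.7%. Contigs lay on both sides of 98.6% of the members and of 99.7% of the 52953. By chromosome, 28 members were on chromosome 6, which is 1.13% of the junctions there, against 0.395% over the 52953. Mest, Lep, Gys2 and Slc6a13 lie there, and Mest alone held 11 of the 28, so a few genes make up this share.

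Genes that regulate splicing were checked in the gene tables. Of 12 genes for SR proteins, which bind exons and promote their use, 0 were 2-fold apart, and their median log2 ratio was -0.03. Of 13 genes for hnRNPs and PTB proteins, which often oppose them, 1 was, namely Hnrnpd at 27.9 and 9.22 TPM, which also hosted a member with 92 and 22 reads. Of 19 tissue-restricted regulators with a mean count of 20 or more, 1 was 2-fold higher in replicate 2. The adipocyte markers had 5 of 17 at least 2-fold higher in replicate 2 and none in replicate 1. Lep and Dgat2, which host members and so were chosen by the ratio rule, are among the 5. The 10 markers of epididymis epithelium had 1 in each direction, at summed levels of 43911 and 29729 TPM. The epididymis is the duct that carries sperm and lies against this fat pad in males, and none of these markers hosted a member. The lists for spermatids, smooth muscle, macrophages and acute-phase and inflammation genes hosted none either. Of the 8 acute-phase and inflammation genes with enough counts, 4 were at least 2-fold higher in replicate 2 and none in replicate 1. The 4 were Ccl2, Ccl7, Orm1 and Orm2, at log2 ratios of 3.23, 2.87, 1.83 and 1.90. Lcn2, the most abundant gene of the list, went the other way by less, at -0.52. The summed level of all 12 listed genes was lower in replicate 2, with 5092 TPM against 6545. Serpina3n, which hosts 3 members, is not on that list.

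The limit itself cut through a continuous range. Just inside it were junctions of Scube1 with 91 and 22 reads, Slc6a13 with 51 and 207 and Ldhc with 103 and 25, all at log2 ratios of 2.00 in size. Just outside were Agpat2 with 404 and 1617, Klrb1c with 174 and 43 and Cox6c with 122 and 30, from 1.99 to 2.00 in size. Of the 209, 32 lay at 4 or more in size.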

How the data were processed

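The authors deposited a junction table and a contig table on mm9, 1 of each for the series, and gene and transcript tables per library on mm10. The deposited junction table gives whole-number read counts per junction, and a fraction from 0 to 1, read here as the irreproducible discovery rate, and a further score that is not used for any result printed here. The deposited contig table gives RPKM, used only for which stretches were covered. The authors' gene tables hold the expected count, an estimated number of fragments, and TPM. Per the file headers, the transcript tables give the percent of the gene's TPM in each transcript. For the aligner, the junction caller and the quantifier, the tool is not given in the sources used here. Expected counts summed to 47106979 and 54129473. The 2 libraries form 1 group, so nothing was tested.

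Ratios were log2 of (R2 + 1)/(R1 + 1) with a pseudocount of 1, and gene ratios log2 of (expected count + 1). Intervals are exact binomial (Clopper-Pearson, 95%, scipy 1.17.1). Positions are 1-based. No mm9 genome was used, so genes were matched by the pattern of introns and no coordinate was converted. The code for ratios and matching was tested on simulated data. Members and gene lists were chosen with earlier results of these data known. Named junctions are the 10 largest ratios in each direction, the 10 with most reads, the 10 largest changes of share, the 5 largest local groups, the 5 junctions on each side of the limit, and list genes that host a member; any other was picked with its values in view. Alternatives covered the limit, pseudocount, read minimum, scaling, span, flags, rate, partner minimum, gap, match and TMM scaling (edgeR 4.0.16).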

Additional observations from a re-analysis of the deposited data

How the results depend on the processing

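The number of unequal junctions (209, with 133 R2-higher and 76 R1-higher) moved with the limit and the depth. At a log2 limit of 1 it was 4272 (2990 and 1282), and at 3 it was 62 (40 and 22). With at least 50 reads it was 406 (246 and 160), and with at least 300 it was 67 (52 and 15). Scaling to equal totals gave 128 R1-higher junctions and bringing the median ratio to 0 gave 124, with both totals within 1.5 times. Pseudocounts of 0.1 and 5, no span limit, other flags and a rate limit changed no total by more than 1.5 times. A partner of 5 reads or more was found for 28.2%, with 44 the same way, 2 the other way and 13 by less, and one of 100 or more for 8.6%, with 15 the same way and 3 by less. With a 1.5-fold limit 5 partners differed by less. Members whose share of a site differed by 20 points or more numbered 3 among flagged junctions alone and 5 among junctions of 20 reads or more, because fewer junctions then enter the site. Under the first of these the shares of Cela1 and Serpina3n no longer differed (0.0), and neither did the second Cela1 share (0.0) under both. The shares of Samm50 and Nav2 could not be measured under either. With a 1.5-fold limit 12 members lay in genes that differed by less. With members left out of the other junctions, an alternative chosen after seeing the data, 73 members lay in a gene shifted the same way, of 100 with enough other junctions, in place of 127 of 152. Median TPM of the genes was 20.7 to 25.4 with one replicate left out. The cause of these shifts was not tested unless stated. No paired analysis was possible because there is 1 group and no second condition.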
